A study of Mus musculus with 2 samples.

Results

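The kidney recovers filtered sugar and lactate through a small set of membrane transporters, and 10 of the genes that encode such proteins are described here. They comprise 5 genes of the SLC5 family of sodium-coupled carriers (Slc5a1, Slc5a2, Slc5a8, Slc5a10 and Slc5a12) and 5 genes of the SLC2 family of facilitative carriers (Slc2a1, Slc2a2, Slc2a4, Slc2a5 and Slc2a9). The genes were chosen by name, through the symbols of the GENCODE M21 annotation of the mouse assembly GRCm38 (mm10), and make up 10 of 43346 measured gene rows. All 10 symbols matched 1 row each. Polyadenylated RNA was sequenced from the kidney of a C57BL/6J mouse, an adult female aged 10 weeks, and the labels name no treatment and no genetic change. Both libraries came from 1 biological sample, extracted with the RNeasy Lipid Tissue Mini Kit, with a size range of 350 to 450 in a unit that the labels do not give. They are technical replicates 1 and 2, called library 1 and library 2 below, and form 1 group. The labels date only the latter and say that it was not in the original publication. No second animal, tissue or treatment was measured, so every test below compares 2 libraries of the same tissue, not conditions, and covers counting error only.

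Glucose that passes the glomerular filter is taken back in the proximal tubule, first across the luminal membrane with sodium and then across the basolateral membrane down its own gradient. The luminal step uses the high-capacity carrier SGLT2 (Slc5a2) in the early tubule and the high-affinity carrier SGLT1 (Slc5a1) further along, while SGLT5 (Slc5a10) carries mannose and fructose. GLUT2 (Slc2a2) and GLUT1 (Slc2a1) provide the basolateral exit. Lactate and other monocarboxylates are recovered with sodium by SMCT1 (Slc5a8) and SMCT2 (Slc5a12). GLUT5 (Slc2a5) carries fructose, GLUT9 (Slc2a9) carries urate, and GLUT4 (Slc2a4) is the insulin-responsive glucose carrier best known from fat and muscle.

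The base composition of these genes enters several of the results, and an equivalent coding stretch of 60 bases is shown for each as an example. The composition of a stretch can differ from that of the whole coding sequence. Every stretch holds 20 codons and lies inside 1 exon. It was taken where the aligned protein sequences of the family had the highest mean amino acid identity. Sequences are on the coding strand of GENCODE M21 transcripts, and capitals mark G or C at the last position of a codon. For the SLC5 family they read:
Slc5a1: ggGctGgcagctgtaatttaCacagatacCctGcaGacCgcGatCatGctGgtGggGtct
Slc5a2: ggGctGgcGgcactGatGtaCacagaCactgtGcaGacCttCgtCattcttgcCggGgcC
Slc5a10: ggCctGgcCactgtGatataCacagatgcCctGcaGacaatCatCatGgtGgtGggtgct
Slc5a8: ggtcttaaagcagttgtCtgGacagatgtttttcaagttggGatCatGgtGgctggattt
Slc5a12: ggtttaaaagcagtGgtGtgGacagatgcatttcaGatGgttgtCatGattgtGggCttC
These stretches lie in exon 7 of Slc5a1 (chr5:33145252-33145311), exon 6 of Slc5a2 (chr7:128268734-128268793), exon 7 of Slc5a10 (chr11:61709298-61709357, minus strand), exon 5 of Slc5a8 (chr10:88902417-88902476) and exon 5 of Slc5a12 (chr2:110616677-110616736). The sugar carriers used G or C at 13 (Slc5a1), 15 (Slc5a2) and 13 (Slc5a10) of the 20 last codon positions, against 6 in Slc5a8 and 10 in Slc5a12. Over the whole coding sequence the order of the monocarboxylate carriers was reversed, with 52.5% of last positions in Slc5a8 and 46.4% in Slc5a12. The grouping by substrate was also visible over whole coding sequences: Slc5a1, Slc5a2 and Slc5a10 shared 60.6% to 64.1% of aligned bases with each other, Slc5a8 and Slc5a12 shared 60.6%, and identities between these groups were 36.8% to 39.4%.

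For the SLC2 family the equivalent stretches read:
Slc2a1: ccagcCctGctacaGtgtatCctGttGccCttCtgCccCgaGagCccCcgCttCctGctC
Slc2a2: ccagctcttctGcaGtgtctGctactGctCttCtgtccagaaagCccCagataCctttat
Slc2a4: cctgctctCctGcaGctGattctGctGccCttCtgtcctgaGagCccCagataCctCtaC
Slc2a5: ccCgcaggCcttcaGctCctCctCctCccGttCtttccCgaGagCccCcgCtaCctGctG
Slc2a9: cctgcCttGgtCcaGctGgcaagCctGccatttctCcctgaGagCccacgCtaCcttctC
They lie in exon 5 of Slc2a1 (chr4:119133166-119133225), exon 6 of Slc2a2 (chr3:28718738-28718797), exon 6 of Slc2a4 (chr11:69945597-69945656, minus strand), exon 8 of Slc2a5 (chr4:150139453-150139512) and exon 7 of Slc2a9 (chr5:38417209-38417268, minus strand). Slc2a1 and Slc2a5 each had G or C at 17 of 20 last codon positions, Slc2a4 at 14, Slc2a9 at 13 and Slc2a2 at 9. Across whole coding sequences Slc2a1 and Slc2a4 were the closest pair (67.6% identity) and Slc2a2 and Slc2a9 the most distant (46.8%). Over the full coding sequence the GC content of the 10 genes ran from 45.6% in Slc5a12 and 47.7% in Slc5a8, through 49.9% in Slc2a2, 51.8% in Slc5a1, 54.1% in Slc2a5, 55.1% in Slc2a9, 56.3% in Slc2a4 and 56.8% in Slc5a2, to 56.9% in Slc2a1 and 57.4% in Slc5a10.

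Expected counts, the estimated number of reads of each gene, summed to 28263730 in library 1 and 20720537 in library 2. Levels are given as TPM, a unit that corrects counts for transcript length and sums to the same total in every library. Mitochondrial genes and their nuclear copies held 74.5% of TPM in library 1 and 36.5% in library 2, which lowers the TPM of every other gene more in library 1. All 5 proximal tubule markers tested (Lrp2, Cubn, Slc34a1, Miox, Slc27a2) were at 1 TPM or more in both libraries, with a summed level of 780.5 and 5348 TPM. By the count test described below, 2 of them were called higher in library 2 (Slc34a1 and Miox) and 3 were not called. This is to be read beside 35.7% of all genes called higher in library 2 and 25.2% in library 1. The median log2 ratio of the 5 markers was -0.11. These ratios compare 2 libraries of 1 sample. The coding GC content was 58.3% in Slc34a1 and 55.6% in Miox, against 46.4% (Cubn) to 52.3% (Slc27a2) in the 3 not called. The part of GC content in these ratios was not tested. As for the levels themselves, in a whole tissue fewer cells of a type and less RNA per cell cannot be told apart.

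Among the sugar carriers of the SLC5 family, Slc5a2 and Slc5a10 stood far apart between the libraries and Slc5a1 did not. Slc5a2 (chr7:128265657-128272430) had 6.67 TPM in library 1 but 225.1 TPM in library 2, from 287 and 6899 counts (mean 115.9 ± 154 TPM, SD, n = 2 technical libraries). The higher library was thus 33.7-fold above the lower, and the SD exceeded the mean. Slc5a10 (chr11:61672781-61720826, minus strand) had 4.7 and 195.6 TPM from 271 and 5988 counts (100.1 ± 135 TPM), a 41.6-fold difference in the same direction. Slc5a1 (chr5:33104219-33162870), the high-affinity carrier, had 15.2 and 33.8 TPM from 1832 and 2176 counts (24.5 ± 13.1 TPM), a 2.23-fold difference in level that became 59.5 and 53.2 TPM with mitochondrial genes left out of the sum.

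The sodium-coupled monocarboxylate carriers had nearly the same TPM in both libraries. Slc5a12 (chr2:110597298-110647779) had 128.3 and 129.3 TPM from 12666 and 6085 counts (128.8 ± 0.714 TPM). Slc5a8 (chr10:88885992-88929515) had 42.8 and 37.5 TPM from 6775 and 3165 counts (40.1 ± 3.76 TPM), and was the only 1 of the 10 genes whose TPM was lower in library 2. With the mitochondrial genes and their copies left out of the sum, Slc5a12 stood at 503.7 and 203.7 TPM and Slc5a8 at 168 and 59 TPM. On that scale both carriers were higher in library 1.

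Of the SLC2 family, Slc2a2 (chr3:28697903-28731359) was the most abundant member in both libraries. It had 62.5 and 88.5 TPM from 3549 and 3346 counts (75.5 ± 18.4 TPM). Slc2a1 (chr4:119108711-119137983), a carrier present in many cell types, had 1.76 and 41 TPM from 131 and 1631 counts (21.4 ± 27.7 TPM). Slc2a5 (chr4:150119283-150144169), the fructose carrier, had 3.56 and 29.8 TPM from 326 and 1239 counts (16.7 ± 18.6 TPM). Every SLC2 gene had a higher TPM in library 2, by 1.42-fold for Slc2a2, 23.3-fold for Slc2a1 and, at the most, 67.8-fold for Slc2a4. With mitochondrial genes left out of the sum, however, Slc2a2 was lower in library 2 (245.3 and 139.5 TPM).

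The urate carrier and the insulin-responsive carrier had the lowest mean levels, though in library 1 Slc2a1 and Slc2a5 were lower than Slc2a9. Slc2a9 (chr5:38349273-38503143, minus strand) had 3.85 and 12.1 TPM from 183 and 473 counts (7.96 ± 5.81 TPM). Slc2a4 (chr11:69942539-69948188, minus strand) had 0.31 and 21 TPM from 24 and 745 counts (10.7 ± 14.6 TPM), and was the sole member under 1 TPM in library 1. Its deposited posterior mean in library 1 was 0.73 TPM, with a deposited credibility interval of 0.393 to 1.15 TPM that does not hold the TPM value itself. The sources used here do not give the level of these intervals, and the deposited TPM lay inside its own interval for 7 of 10 genes in library 1 and 4 of 10 in library 2.

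**Figure D1:**
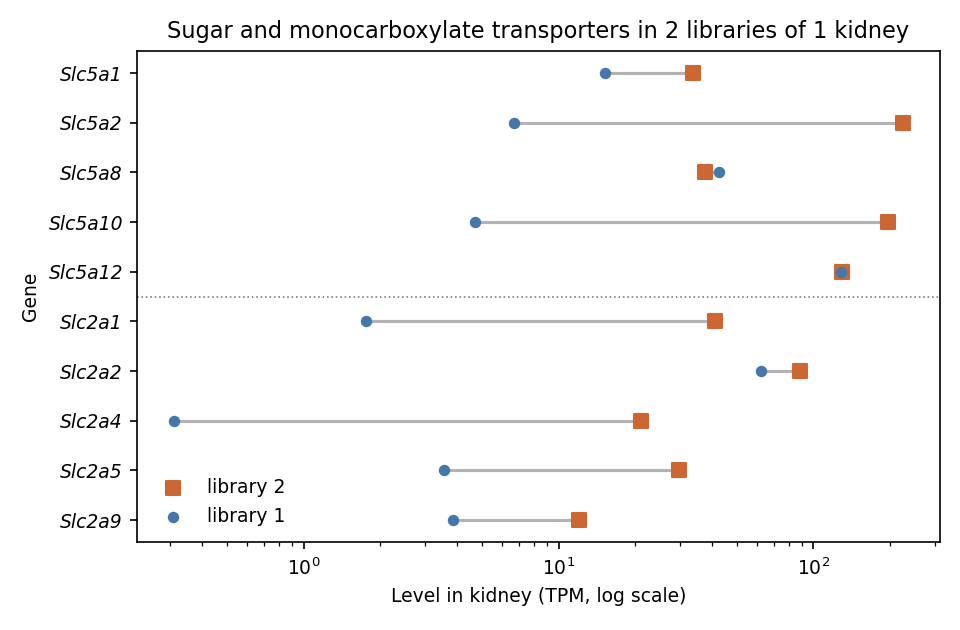
Level of each of the 10 transporter genes on a log axis in TPM, with a circle for library 1, a square for library 2 and a line joining them. Slc5a12 is at 128.3 and 129.3 TPM, while Slc5a2, Slc5a10, Slc2a1 and Slc2a4 are spread over more than an order of magnitude.

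The order of the genes by TPM therefore differed between the libraries. In library 1 it ran Slc5a12, Slc2a2, Slc5a8, Slc5a1, Slc5a2, Slc5a10, Slc2a9, Slc2a5, Slc2a1 and Slc2a4. In library 2 it ran Slc5a2, Slc5a10, Slc5a12, Slc2a2, Slc2a1, Slc5a8, Slc5a1, Slc2a5, Slc2a4 and Slc2a9. Neighbours whose deposited credibility intervals overlapped were Slc5a10 with Slc2a9 and Slc2a9 with Slc2a5 in library 1, and Slc5a1 with Slc2a5 in library 2. The rank correlation between the libraries across the 10 genes was 0.491, as a description of genes that share the same pair of libraries. Slc5a12 and Slc2a2 kept a place among the leading 4 genes in both, and Slc2a4 a place among the last 2. Summed over the 10 genes, the level was 269.6 TPM in library 1 and 813.6 TPM in library 2, and the leading 2 genes held 70.8% and 51.7% of that sum.

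Which transporters differed between the libraries was asked on counts rather than TPM. Library sizes were scaled by TMM, which takes the typical gene as unchanged, and each gene was tested with a two-sided exact conditional binomial test with Benjamini-Hochberg adjustment over 15553 genes. A call required a log2 ratio of library 2 over library 1 of at least 1 in size and an adjusted p under 0.05. Of the 10 transporters 7 were called, beside 60.9% of all genes tested. In library 2, 5 were higher (Slc5a2, Slc5a10, Slc2a1, Slc2a4 and Slc2a5; 35.7% of all genes), and in library 1, 2 were higher (Slc5a8 and Slc5a12; 25.2% of all genes). The share called among the transporters was thus near that of the transcriptome. Their median log2 ratio was 1.19, against 0.12 over all genes tested, with -0.21 for the SLC5 genes and 1.47 for the SLC2 genes.

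The largest ratios belonged to Slc2a4, Slc5a2 and Slc5a10. The log2 ratio was 4.48 for Slc2a4 (95% counting interval 3.92 to 5.15; adjusted p = 1.2e-140, exact conditional binomial test). For Slc5a2 it was 4.13 (3.96 to 4.31) and for Slc5a10 4.01 (3.83 to 4.19), and the adjusted p of both was too small for the software to write. The glucose carrier of luminal high capacity and the mannose carrier thus had overlapping intervals. Slc2a1 followed at 3.18 (2.92 to 3.45; adjusted p = 2.9e-235 by the same exact test) and Slc2a5 at 1.47 (1.29 to 1.65; adjusted p = 1.8e-70).

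In the other direction, Slc5a8 had a log2 ratio of -1.55 (-1.62 to -1.49) and Slc5a12 of -1.51 (-1.56 to -1.47), again with overlapping intervals and with an adjusted p too small to be written. These were the calls that depended on the scaling: by total counts, which sets the median gene 0.90 higher in log2 ratio, the values were -0.65 and -0.61 and neither was called. On that scaling 6 of the 10 transporters were called, all higher in library 2, beside 54% of all genes (49.4% higher in library 2 and 4.63% in library 1). Slc2a9 had a log2 ratio of 0.91 (0.66 to 1.17; adjusted p = 7.3e-14, exact conditional binomial test), short of the required size, and 1.82 by total counts, where it was called.

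Slc5a1 and Slc2a2 were not called by either of these scalings, and the sign of their ratio depended on it. The log2 ratio of Slc5a1 was -0.21 (-0.30 to -0.12; adjusted p = 8.8e-06, exact conditional binomial test) by TMM and 0.70 by total counts. Slc2a2 was at -0.54 (-0.61 to -0.47; adjusted p = 5.4e-54) by TMM and 0.36 by total counts. No direction is therefore given for either gene. When edgeR's exact test was run with an assumed coefficient of variation of 0.4 beyond counting error, 4 transporters were called (Slc5a2, Slc5a10, Slc2a1 and Slc2a4), beside 23.7% of all genes, of which 22.3% were higher in library 2 and 1.45% in library 1.

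The ratio of the libraries moved with base composition, both across all genes and among the transporters. Over 11651 genes with at least 100 counts it rose with the GC content of the coding sequence (Spearman rho = 0.766), and over 11472 genes with that of the transcript (rho = 0.915). Across the 10 transporters, which share the same 2 libraries, the coding GC content and the log2 ratio had r = 0.925 and rho = 0.867, and the GC content of the last codon positions alone had r = 0.712 and rho = 0.576. The 2 genes of lowest coding GC content, Slc5a12 and Slc5a8, were those called higher in library 1. The 4 genes of highest coding GC content, Slc5a10, Slc2a1, Slc5a2 and Slc2a4, were the 4 with the highest ratios.

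**Figure D2:**
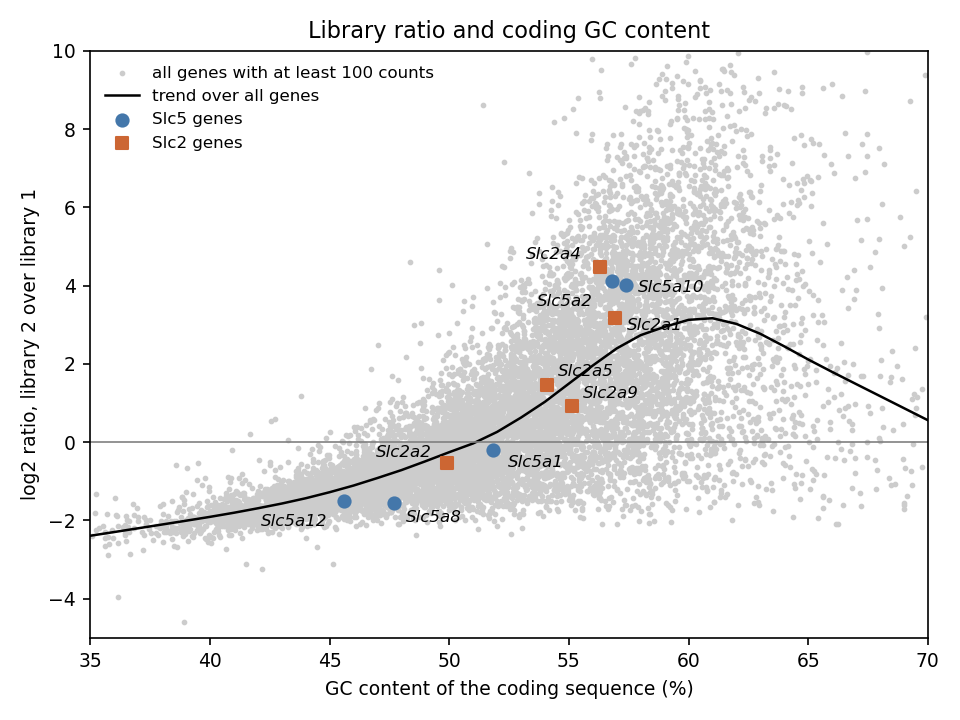
Log2 ratio of library 2 over library 1 against the GC content of the coding sequence in percent, for all genes with at least 100 counts (grey points), the locally weighted trend through them (line), SLC5 members (circles) and SLC2 members (squares). The transporters rise from -1.51 at 45.6% GC (Slc5a12) to 4.01 at 57.4% GC (Slc5a10), all below the GC content of 61% at which the line turns down; 76 genes lie outside the axes.

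Fewer transporters were called once this trend was removed gene by gene. With the trend on transcript GC content removed, 2 of the 9 transporters that had such a value were called, beside 22.2% of all genes (11.3% higher in library 2 and 10.9% in library 1), namely Slc2a4 (log2 ratio 1.81) and Slc5a2 (1.21). Slc5a10 was at 0.78, Slc2a2 at 0.69, Slc2a9 at 0.31, Slc5a1 at 0.21, Slc5a8 at 0.09, Slc2a5 at 0.08 and Slc5a12 at -0.12. Slc2a1 had no transcript value, and that of Slc2a2 came from its retained-intron transcript. With the trend on coding GC content removed, an alternative chosen after the data had been seen, all 10 had a value and 3 were called, beside 38.5% of all genes (20.2% higher in library 2 and 18.3% in library 1). These were Slc2a4 (2.37), Slc5a2 (1.81) and Slc5a10 (1.47). Slc2a1 was then at 0.82, Slc2a5 at 0.40, Slc2a2 at -0.26, Slc5a12 at -0.34, Slc5a1 at -0.41, Slc2a9 at -0.65 and Slc5a8 at -0.77. Under both ways of removing it, Slc2a4 and Slc5a2 stayed called higher in library 2, and neither monocarboxylate carrier was called.

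Ratios between transporters inside 1 library do not depend on how the libraries are scaled, and 5 pairs of related function, picked with their values known, were described in this way. The level of Slc5a2 was 0.440 times that of Slc5a1 in library 1 (95% counting interval 0.387 to 0.499) and 6.67 times in library 2 (6.35 to 7.0), a change of 15.2-fold. The leading luminal glucose carrier by TPM was thus Slc5a1 in library 1 and Slc5a2 in library 2. These intervals take the estimated split of Slc5a2 among its transcripts as given. In library 1, 33.4% of the TPM of Slc5a2 came from 17.4 counts of the 445-base transcript ENSMUST00000146735. The deposited credibility interval of Slc5a2 in library 1 was 5.48 to 9.23 TPM. Slc5a12 was 3.0 times Slc5a8 in library 1 (2.91 to 3.09) and 3.45 times in library 2 (3.31 to 3.6), a change of 1.15-fold. The order of the monocarboxylate carriers was the same in both.

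For the basolateral carriers, the level of Slc2a2 was 35.5 times that of Slc2a1 in library 1 (29.8 to 42.6) and 2.16 times in library 2 (2.03 to 2.29). Slc5a10 was 0.705 times Slc5a2 in library 1 (0.595 to 0.835) and 0.869 times in library 2 (0.839 to 0.90), a change of 1.23-fold. Slc2a5 was 0.925 times Slc2a9 in library 1, with an interval that spans equality (0.769 to 1.11), and 2.47 times in library 2 (2.22 to 2.75). Slc5a10 with Slc5a2 (coding GC content 57.4% and 56.8%) and Slc5a12 with Slc5a8 (45.6% and 47.7%) had ratios that changed by less than 1.5-fold. Slc5a2 with Slc5a1 (56.8% and 51.8%) and Slc2a2 with Slc2a1 (49.9% and 56.9%) had ratios that changed by more than 10-fold. Slc2a5 with Slc2a9 (54.1% and 55.1%) changed by 2.67-fold, though their GC contents lay closer than those of Slc5a12 and Slc5a8. On counts, the log2 ratios between the libraries were 1.47 (Slc2a5) and 0.91 (Slc2a9). In every pair, the TPM of a gene with several transcripts also depends on its estimated split among transcripts of unlike length. The counting intervals take that split as given. The part of GC content in these changes was not tested.

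**Figure D3:**
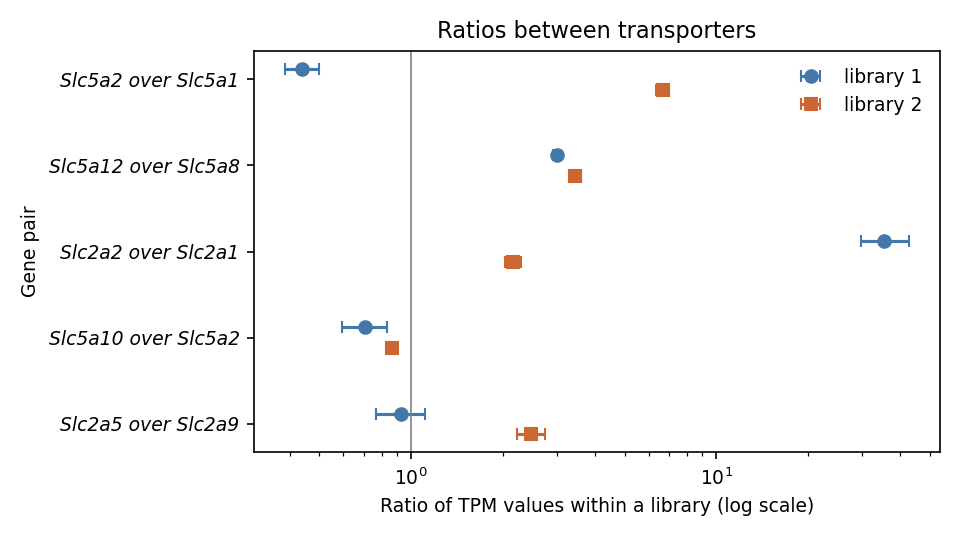
Ratio of the TPM values of 2 transporters within a library on a log axis, for 5 pairs, in library 1 (circles) and library 2 (squares), with 95% counting intervals; the vertical line marks equal levels. Slc5a2 over Slc5a1 lies below equality in library 1 (0.440) and above it in library 2 (6.67).

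At the transcript level, 7 of the 10 genes had the same leading transcript in both libraries and 3 had a different one. Slc5a1 and Slc5a8 have a single annotated transcript each, and all reads of Slc2a1 were assigned to ENSMUST00000030398 in both libraries. The leading transcript of Slc5a12, ENSMUST00000111026, held 95.5% of the gene's TPM in library 1 and 83.7% in library 2. Its short processed transcript ENSMUST00000127822 held 4.14% and 15.1%. For Slc2a5 the coding transcript ENSMUST00000030826 held 100% and 82.2%.

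Slc5a10 changed its leading transcript. The 2049-base coding transcript ENSMUST00000148584 was listed at 0 counts in library 1 and had 5433 counts in library 2, where it held 90.8% of the gene's TPM. In library 1 the gene's reads went to the 1927-base coding transcript ENSMUST00000151780 (136 counts, 53.8%) and the processed transcript ENSMUST00000128196 (126 counts, 43.1%), which held 5.24% and 1% in library 2. Compared with ENSMUST00000151780, the longer ENSMUST00000148584 includes exon 7 of 81 bases (chr11:61709279-61709359, minus strand; 53.1% GC), which contains the stretch of Slc5a10 shown above and is printed here as the larger of the coding differences between these transcripts, which also differ by 51 bases at the first exon and by 10 non-coding bases found only in ENSMUST00000151780:
Slc5a10 exon 7: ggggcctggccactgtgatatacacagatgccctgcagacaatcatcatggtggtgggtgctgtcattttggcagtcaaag
No junction reads were used here, so the split of library 1's 271 counts among these transcripts rests on the deposited estimates alone. The posterior mean values gave ENSMUST00000148584 2.48% in library 1 and 90.5% in library 2.

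Slc2a2 was divided between its coding transcript and a shorter retained-intron transcript. ENSMUST00000029240, the coding transcript of 11 exons, had 1905 and 3149 counts and held 41.5% of the gene's TPM in library 1 and 90.7% in library 2. ENSMUST00000169047, a retained-intron transcript of 1649 bases that spans 4 exons, had 1644 and 192 counts and held 58.5% and 9.05%. The gene count of Slc2a2, 3549 and 3346, was thus similar in both libraries while its division was not. The coding transcript alone stood at 25.9 and 80.3 TPM, and the retained-intron transcript at 36.6 and 8.01 TPM. The files give ENSMUST00000029240 a length of 2573 bases where the reference used here gives 5569, so its annotated end differs between the releases.

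Slc2a9 and Slc5a2 had short non-coding transcripts with larger shares in library 1. The processed transcript ENSMUST00000140462 of Slc2a9, 776 bases long, held 59.1% in library 1 and 20.7% in library 2, from 41 and 24 counts. The coding transcript ENSMUST00000129099 of Slc2a9 held 9.44% and 50.3%, from 36.7 and 326.7 counts. These shares of Slc2a9 rest on 183 and 473 counts spread over 12 annotated transcripts. For Slc5a2 the coding transcript ENSMUST00000118169 led in both libraries (61.8% and 86.4%), while ENSMUST00000146735, a retained-intron transcript of 445 bases, held 33.4% in library 1 and 1.39% in library 2 from 17.4 and 13.2 counts. In Slc2a4 the coding transcript ENSMUST00000018710 held 74.5% and 85.3%, but 28.7% and 78.1% from the posterior mean values, so its share in library 1 is not settled by 24 counts.

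**Figure D4:**
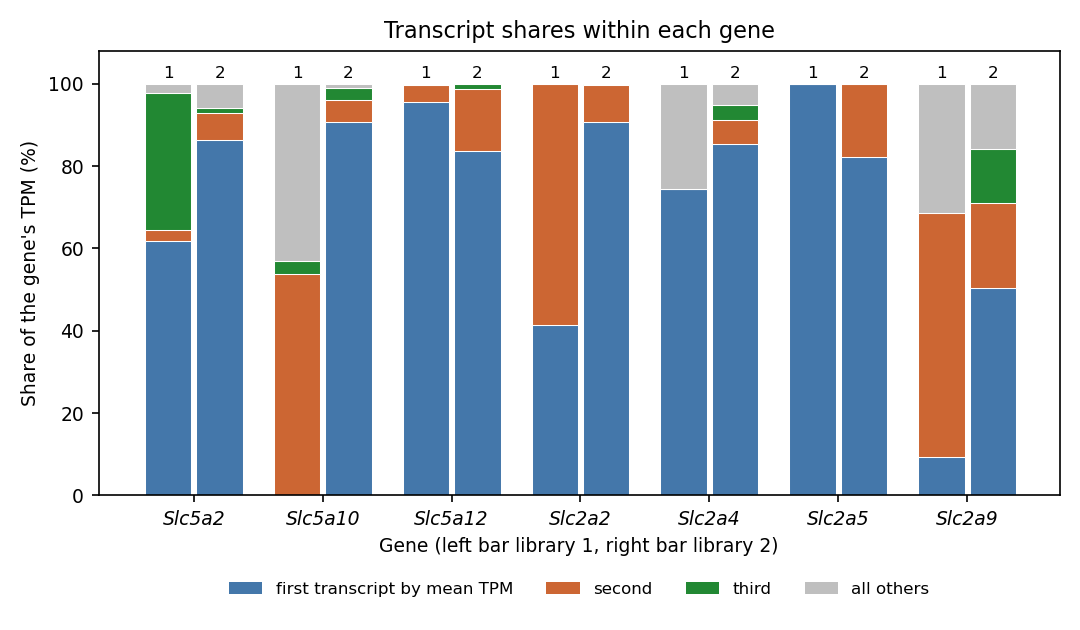
Share of a gene's TPM held by its transcripts, in percent, for the 7 genes with more than 1 transcript with reads, as stacked bars with library 1 on the left and library 2 on the right of each pair; colours rank the transcripts of a gene by mean TPM. The leading colour of Slc5a10 is absent in library 1 and holds 90.8% in library 2, and that of Slc2a2 goes from 41.5% to 90.7%.

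Some of the reads could belong to overlapping genes, since the sources used here do not state whether counting used the strand. Slc5a2 overlaps BC017158 on the opposite strand, with 469 bases of identical transcript sequence. BC017158 had 1.09 and 11.7 TPM, or 86 and 472 counts, against 287 and 6899 for Slc5a2. Slc5a10 shares 211 bases with Fam83g on the opposite strand, a gene with 0.12 and 5.5 TPM. No 2 of the 10 transporters shared a stretch at 95% identity, so reads were not split between family members by near-identical sequence.

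The remaining genes of these pathways were described from 5 lists with 52 genes in all, with calls and ratios by TMM, to be read beside the 35.7% of all genes called higher in library 2 and the 25.2% called higher in library 1 (with total counts the median over all genes is 0.90 higher). Of 7 other SLC2 genes 5 could be tested, and 2 were called higher in library 2, 1 in library 1 and 2 not (median log2 ratio 0.04). Slc2a8 had 0 and 11.5 TPM, or 0 and 368 counts, so that it was at least 89.4-fold higher in library 2 against the floor of 3 counts. Slc2a12 had 2.97 and 5.64 TPM (log2 ratio -0.44, not called) and the proton-coupled inositol carrier Slc2a13 2.65 and 1.98 TPM (-1.77). Of 8 other SLC5 genes 4 could be tested, with 2 higher in library 2, 1 in library 1 and 1 not called (median 0.81). The inositol carrier Slc5a3 had 34.6 and 32.7 TPM (-1.45), the inositol carrier Slc5a11 0.81 and 36.1 TPM (4.26), and the vitamin carrier Slc5a6 3.56 and 32.1 TPM (1.37). No other gene of either family reached the level of Slc5a12 or Slc2a2 in library 1, nor that of Slc5a2 or Slc5a10 in library 2.

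The SLC16 monocarboxylate carriers, several of which move lactate with protons, were listed with their chaperones Bsg and Emb. Of 16 genes 15 were tested, 5 were higher in library 2, 4 in library 1 and 6 were not called (median log2 ratio -0.45), which is near the background of 35.7% and 25.2%. Slc16a4 had 144.9 and 106.1 TPM (-1.82) and Slc16a7 82.7 and 64.8 TPM (-1.74), both called higher in library 1 like the sodium-coupled carriers Slc5a8 and Slc5a12, and both with a coding GC content (43.4% and 44.4%) below theirs. Bsg, which brings several of these carriers to the membrane, had 73 and 475.2 TPM (1.37). Slc16a11 was at 0 and 12.4 TPM, or 0 and 226 counts, at least 54.9-fold higher in library 2.

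Among 11 partners and regulators of the transporters, 8 were called higher in library 2, 1 in library 1 and 2 not (median log2 ratio 2.54), beside 35.7% and 25.2% of all genes called in these directions. Pdzk1ip1, which encodes MAP17, a partner of SGLT2, had 20.5 and 938 TPM (4.61), beside 6.67 and 225.1 TPM for Slc5a2. The scaffold protein gene Pdzk1 had 112.4 and 621.2 TPM (1.08) and Txnip, an inhibitor of glucose uptake, 72.6 and 311.5 TPM (0.73, not called). Tbc1d4, which holds back GLUT4 in unstimulated cells, had 6.88 and 7.96 TPM (-1.04), beside 0.31 and 21 TPM for Slc2a4. Rsc1a1 had 0 and 225 counts, at least 54.7-fold higher in library 2, and overlaps Ddi2.

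Of 10 sugar and lactate enzymes 6 were called higher in library 2 and 4 were not called (median log2 ratio 1.48). Khk, the ketohexokinase that opens fructose breakdown, had 0.92 and 488.4 TPM (7.55), beside 3.56 and 29.8 TPM for the fructose carrier Slc2a5. Ldhb, a lactate dehydrogenase subunit, had 130.7 and 1379 TPM (2.90), beside 128.3 and 129.3 TPM (-1.51) for the lactate carrier Slc5a12. Pck1, the gluconeogenic carboxykinase, had 246.4 and 1177 TPM (0.88, not called).

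Markers of other cells that could hold these transporters also differed between the libraries. Their calls are to be read beside the 35.7% of all genes called higher in library 2 and the 25.2% called higher in library 1. Of 5 adipocyte markers, set beside Slc2a4, 2 were at 1 TPM or more in both libraries, and the list summed to 24.6 and 104 TPM. Most of that sum came from Fabp4 (23 and 72.7 TPM, log2 ratio 0.21, not called) and Cfd (0.09 and 25 TPM, 6.50, called). Adipoq had 1.56 and 5.02 TPM (not called), Plin1 0 and 1.2 TPM (called) and Lep 0.01 and 0.06 TPM (too few counts to test). Of 5 skeletal muscle markers, 4 were under 1 TPM in both libraries and the list summed to 0.76 and 1.52 TPM, with Ckm, Acta1, Myh4 and Tnnt3 at 0 in library 1 and Myh4 and Tnnt3 at 0 in both. The 3 smooth muscle and mural markers summed to 7.49 and 126 TPM. The 5 erythroid markers were all called higher in library 2 and summed to 43.1 and 2408 TPM, with a coding GC content of 52.4% (Alas2) to 58.7% (Hba-a1). For Slc2a1, a carrier of endothelium among others, the 4 endothelial markers summed to 91.4 and 232.3 TPM. The endothelial markers did not move together: Plvap (log2 ratio 4.48) and Pecam1 (1.27) were called higher in library 2, Emcn (-1.44) was called higher in library 1, and Kdr (-0.29) was not called. The coding GC content of the endothelial markers was 62.0% in Plvap, 50.55% in Pecam1, 49.4% in Kdr and 45.2% in Emcn. For the tested adipocyte markers it was 63.0% in Plin1, 58.9% in Cfd, 52.6% in Adipoq and 48.5% in Fabp4. The part of these cells and of GC content in the levels of Slc2a4 and Slc2a1 was not tested.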

How the data were processed

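Gene and transcript tables of polyA RNA-seq were used for 2 technical libraries of 1 kidney sample, on mm10 with annotation M4, per the text deposited beside them. The sources used here name neither the aligner nor the quantifier, and do not state whether counting used strand. Per the file headers, the authors deposited unscaled expected counts, with totals of 28263730 and 20720537. TPM and FPKM values were deposited as counts per length scaled within each library, and FPKM was not reported. Isoform percent and posterior mean TPM with the bounds of its credibility interval were deposited as well, and the upper bound is a signal that is never below 0. Lengths in bases were deposited beside them.

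GENCODE M21, on the same assembly, gave symbols and sequences, and 42462 of 43346 gene rows matched. Another 26248 numbered short RNA rows and 97 spike-in or other rows were at 0 and left out. After rounding of the expected counts, TMM factors (edgeR 4.0.16) were computed on genes whose counts in both libraries summed to 10 or more. TMM had first been run on all genes, and that version is kept as an alternative. A quasi-likelihood fit needs more than 1 library on each side, so an exact conditional binomial test (scipy 1.17.1, Python 3.11.15) was used, with a prior count of 0.5 in the log2 ratio. GC trends were locally weighted regressions (statsmodels 0.14.6, span 20%) on genes with at least 100 counts, taking transcripts whose length lay within 10% of the reference. Shared sequence was searched with blastn 2.17.0 at 95% identity. Coding sequences were translated and aligned as proteins with mafft 7.526, and base identity was counted over the aligned codons. A count of 0 allows up to 3 counts, the floor used for ratios against 0. The test was tested on simulated data that held counting error only, with no GC trend and no further variation between the libraries. Alternatives were other library scalings, count filters, posterior mean counts, another prior count, edgeR's exact test with assumed variation, and GC trends removed.

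All 10 members are named, and from each pathway list the 3 genes of highest mean TPM and those of the largest and smallest ratio. Other genes are named only as markers, as overlapping genes, or among the closing observations, where they were picked after their values had been seen. A gene that this rule names is not reported here. The members and lists were chosen with earlier results of these data known.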

Additional observations from a re-analysis of the deposited data

How the results depend on the processing

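The count of 7 transporters called (5 higher in library 2, 2 in library 1) was the same with DESeq2 size factors, TMM on all genes, posterior mean counts, both other count filters, a prior count of 2 and edgeR's exact test with an assumed variation of 0.1. By totals without mitochondrial genes 8 were called (6 and 2), with Slc2a9 added at a log2 ratio of 1.15. By total counts 6 were called with 0 higher in library 1, with the transcript GC trend removed 2 (2 and 0), with the coding GC trend removed 3 (3 and 0), and with an assumed variation of 0.4 in edgeR's exact test 4, with 0 higher in library 1. The sign of the log2 ratio reversed for Slc5a1 by total counts (0.70), by totals without mitochondrial genes (0.034) and with the transcript GC trend removed (0.21), for Slc5a8 with the transcript GC trend removed (0.093), for Slc2a2 by total counts (0.36) and with the transcript GC trend removed (0.69), and for Slc2a9 with the coding GC trend removed (-0.65). The cause of these changes was not tested. Of the remaining log2 ratios under alternatives, 98 kept direction and call, 12 lost the call and 2 gained it. TMM on all genes and the coding GC trend were chosen after seeing the data. Leaving out either library leaves a level but no ratio, and Slc5a2, for example, then stood at 6.67 or 225.1 TPM. No paired analysis was possible because the 2 libraries form 1 group. Depth limits Slc2a4 in library 1 (24 counts) and the transcript shares of Slc2a9.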

Other observations

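Among genes of the same lists that have not been described above, Hnf4a, a transcription factor gene of the proximal tubule, had 34.2 and 223.7 TPM in libraries 1 and 2 (log2 ratio 1.34). The sugar carrier Slc5a9 had 6.61 and 22.3 TPM (0.25). Slc16a1, the broadly expressed proton-coupled lactate carrier, had 16 and 22.3 TPM (-0.88), and the creatine carrier Slc16a12 40.1 and 48.3 TPM (-1.10). Sord, the sorbitol dehydrogenase of fructose formation, had 255.7 and 761.7 TPM (0.21). These 5 genes were picked after their values had been seen.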
